A study of Mus musculus with 29 samples.

Results

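The genes described here are 9 that mature B lymphocytes use to receive and pass on signals: Cr2, Fcer2a, Cxcr5, Ms4a1, Cd22, Cd79b, Blnk, Spib and Fcrla. They were chosen by name with earlier results of these data known. Counts of them beside shares of all genes are therefore a description. Their values are those of the probe sets annotated to 1 of these symbols alone, 14 of the 22690 probe sets of a mouse expression array. A gene was taken as its brightest probe set in a tissue, which gave 9 of 12393 measured genes. The levels come from 29 arrays, 15 of bone marrow and 14 of spleen, labelled as separate biological replicates. Each was taken as 1 mouse, so p-values measure the spread between these arrays. The fusion mice carried MLL-ENL-ERtm, in which the leukaemia fusion oncogene MLL-ENL is joined to a mutated oestrogen receptor domain, so that its protein works only while tamoxifen is given. All groups, wild type included, received tamoxifen in the chow at 300 mg/kg. In marrow, 4 fusion arrays were from the proliferation state after 7 months of tamoxifen, 4 from the transition state after 7 to 8 months and 3 from the senescence state after 8 months, and 4 were wild type after 7 or 8 months. In spleen, 3 fusion arrays were from the early stage after 7 months, 3 from progression after 9 or 10 months and 3 from the terminal stage after 19, 21 and 23 months, and 5 were wild type after 8, 9, 11, 11 and 24 months. The labels describe a myeloproliferative disease in the fusion mice: strong division with little DNA damage response in proliferation marrow, less division and more of that response in transition, induced division and response in early spleen, partial senescence in progression, and division without senescence at the terminal stage. The RNA was of primary cells with no sort of B cells named, so fewer B cells and less RNA per B cell cannot be told apart in any value below. The promoter or cell type that drives the fusion was not given in the sources used here.

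B cells are made in the bone marrow and settle in spleen and lymph nodes, where follicles hold them together with follicular dendritic cells. A B cell senses antigen through membrane antibody that is held and coupled to the cell interior by CD79a and CD79b, and the adaptor BLNK passes that signal to downstream enzymes. CD21, encoded by Cr2, lowers the threshold of this signal by binding complement on antigen, while CD22 dampens it. CXCR5 guides B cells into follicles along the chemokine CXCL13. Spi-B is a transcription factor of the Ets family that B cells and plasmacytoid dendritic cells use.

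All values are log2 levels, and levels were compared only within a tissue, since the median of an array was 8.11 to 8.29 in marrow but 6.73 to 6.90 in spleen. The lower quartile of an array was 6.13 to 6.32 in marrow and 4.56 to 4.81 in spleen, and no fold was calculated for a gene whose lower group mean lay less than 1 unit above it. Marker genes were read beside the tissue labels. In wild-type marrow the 10 neutrophil genes averaged 14.54 to 14.67 per array and the 9 mature B cell genes 9.13 to 10.43. In wild-type spleen the neutrophil genes averaged 11.21 to 12.19 and the 9 genes 11.14 to 11.46. As levels were not compared between tissues, these averages describe the arrays and are no test of the labels. Signal of another tissue stood out on 3 arrays: 8 adipocyte and muscle genes lay 3.85 above the wild-type mean on proliferation marrow array 1, and 8 pancreas genes lay 0.83 above it on early spleen array 1 and 4.95 above it on wild-type spleen array 3. Xist, the RNA of the inactive X chromosome, exceeded a log2 level of 8 on all 8 proliferation and transition marrow arrays, on 1 of 3 from senescence and on 2 of 4 from wild type. Among spleens it did so on 1 of the 3 early arrays, on 0 of 3 in progression, on 3 of 3 at the terminal stage and on 2 of the 5 from wild type.

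Promoter sequence, from 250 bases before to 50 bases after a transcription start, was at hand for 6 of the 9 genes in RefSeq (GRCm38.p6), as 8 promoters. Cxcr5, Cd79b and Ms4a1 had no entry. Because the 9 genes moved together, motifs of known B cell factors were searched on both strands. The octamer ATGCAAAT, the site of Oct factors, was in 1 of the 8 promoters, that of Blnk, and in 570 of all 32851 promoters, or 1.74%. The EBF1 core, tccc and ggga set apart by any pair of bases, was in the promoter of Cd22 and in 0.904% of all promoters. The core GAGGAAG of Spi-B and PU.1 was in 0 of the 8 and in 13.6% of all. The motifs did not overlap one another, and a match is a description of the letters only. The promoters of Blnk and Cd22 are shown for these matches, and that of Cr2 because Cr2 had the lowest log2 difference of all genes in terminal spleen; capitals mark the octamer on its reverse strand, from base 121 to 128, and the EBF1 core, from base 202 to 211. They lie at chr19:40994172-40994471, chr7:30878979-30879278 and chr1:195176670-195176969 of GRCm38.p6, each on the minus strand and read 5′ to 3′ along the gene.
Blnk: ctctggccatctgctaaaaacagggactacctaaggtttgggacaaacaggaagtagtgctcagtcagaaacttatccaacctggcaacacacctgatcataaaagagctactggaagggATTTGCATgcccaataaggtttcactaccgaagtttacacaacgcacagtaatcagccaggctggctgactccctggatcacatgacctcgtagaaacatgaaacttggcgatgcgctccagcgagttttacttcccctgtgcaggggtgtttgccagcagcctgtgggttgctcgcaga
Cd22: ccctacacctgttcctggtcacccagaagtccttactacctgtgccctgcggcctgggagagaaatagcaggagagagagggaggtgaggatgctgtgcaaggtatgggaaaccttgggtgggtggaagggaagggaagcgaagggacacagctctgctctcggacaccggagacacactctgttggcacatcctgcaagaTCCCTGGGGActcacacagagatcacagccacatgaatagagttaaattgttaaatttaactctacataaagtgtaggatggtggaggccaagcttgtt
Cr2: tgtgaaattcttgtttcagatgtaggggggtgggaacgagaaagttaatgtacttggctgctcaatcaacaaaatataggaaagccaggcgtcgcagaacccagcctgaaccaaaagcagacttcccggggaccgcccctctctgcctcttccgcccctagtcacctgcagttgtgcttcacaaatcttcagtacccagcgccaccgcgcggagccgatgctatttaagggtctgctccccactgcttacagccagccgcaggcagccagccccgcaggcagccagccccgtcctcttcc

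In the spleen all 9 genes were lower in fusion mice than in wild-type mice at every stage, and for all 9 the group means had the same order, with early nearest to wild type, then progression, then terminal. Every fusion array of each stage lay below every wild-type array for 9 of 9 genes, as did 12.6% of all genes in the early, 11.7% in the progression and 18.2% in the terminal comparison. With limma and an adjusted p under 0.05, 8 of the 9 were lower at the early stage, 9 in progression and 9 at the terminal stage, against 8.55%, 9.96% and 16.3% of all 12393 genes called lower. Over the 3 stages pooled 9 of 9 were lower, against 16.4% of all genes. The median log2 difference of the 9 was -1.81 at the early stage, -2.67 in progression and -3.91 at the terminal stage, beside 0.03, 0.04 and 0.04 over all genes. The 3 stages were set against the same 5 wild-type arrays, so these comparisons share their controls. The early count was 4 without early array 1, early array 3 or wild-type array 5, and 5 without wild-type array 4. The progression and terminal counts stayed at 8 or 9 whichever array was left out.

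**Figure D1:**
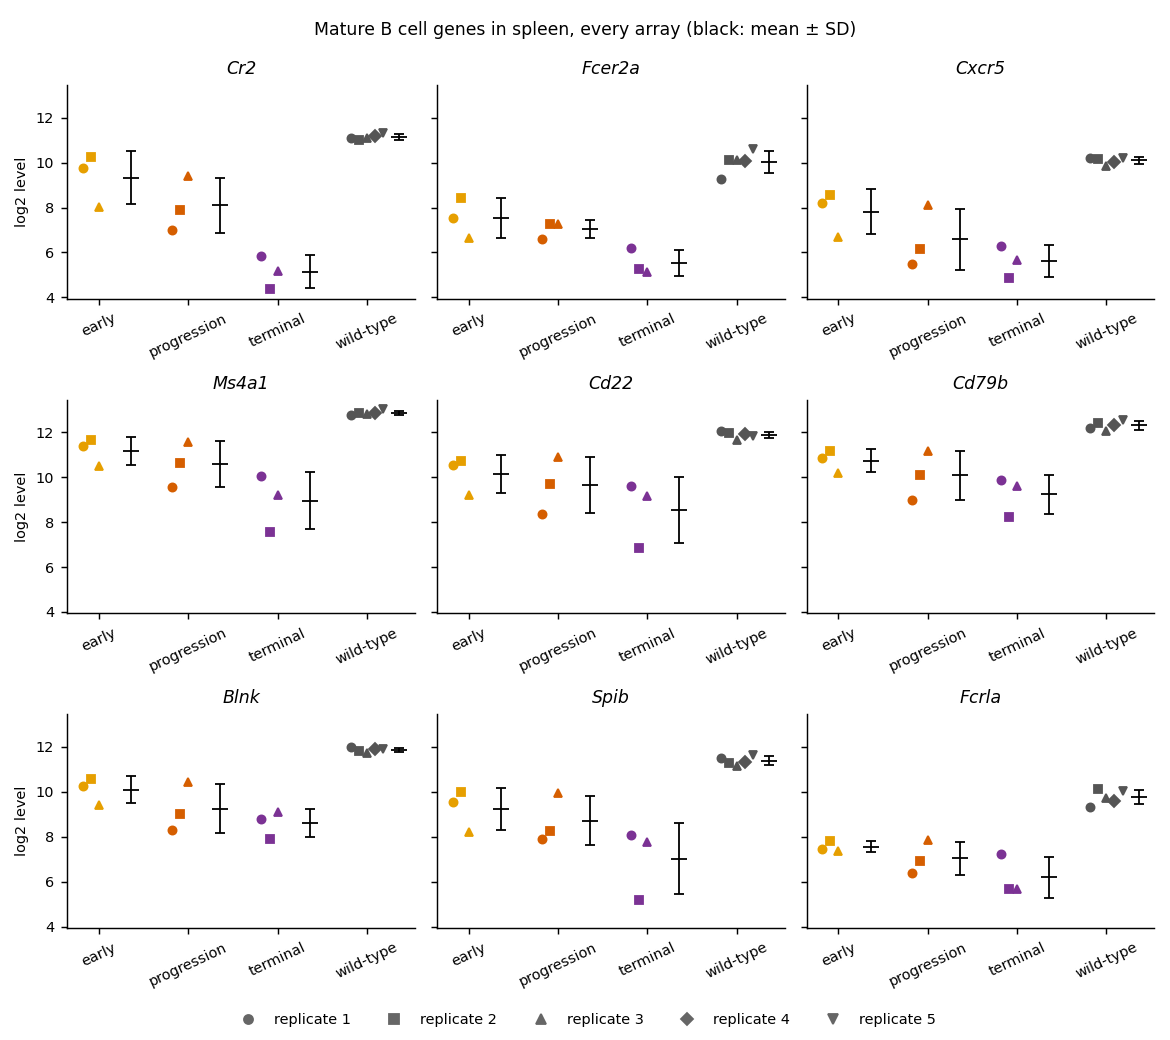
Log2 level of each gene (y axis) on every spleen array, by group (x axis: early, progression, terminal, wild type), with the replicate number as marker shape and the mean ± SD in black (n = 3, 3, 3 and 5). All 9 fusion arrays lie below the wild-type arrays in every panel, and Cr2 reaches 4.37 on 1 terminal array.

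Cr2 and Fcer2a encode the surface receptors CD21 and CD23, which bind complement and IgE. Both are also made by follicular dendritic cells. Cr2 was at 9.74, 10.25 and 8.01 on the early arrays, at 6.99, 7.91 and 9.42 in progression, at 5.85, 4.37 and 5.19 at the terminal stage, and at 11.09, 11.02, 11.09, 11.19 and 11.33 in wild type. The early and progression arrays overlapped, and the terminal arrays lay below both. Cr2 was lower than wild type by -1.81 ± 0.52 (log2 difference ± SE, adjusted p = 0.03) early, -3.04 ± 0.52 (adjusted p = 0.0011) in progression and -6.01 ± 0.52 (adjusted p = 1.9e-06) at the terminal stage. The terminal difference was the lowest of all 12393 genes. Terminal Cr2, at a mean of 5.14 ± 0.74 (SD, n = 3), lay less than 1 unit above the lower quartile of its arrays.

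Fcer2a was at 7.52, 8.42 and 6.66 early, at 6.58, 7.26 and 7.27 in progression, at 6.19, 5.24 and 5.12 at the terminal stage, and at 9.27, 10.13, 10.12, 10.08 and 10.60 in wild type. The wild-type mouse of 24 months had the lowest wild-type value and was still above all fusion arrays. The log2 differences were -2.50 ± 0.37 (adjusted p = 0.00053), -3.00 ± 0.37 (adjusted p = 0.00013) and -4.52 ± 0.37 (adjusted p = 1.4e-06) in stage order. At the early stage Fcer2a ranked 5 from the lowest of all genes.

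Cxcr5, the follicle homing receptor, was at 8.20, 8.56 and 6.70 early, at 5.48, 6.17 and 8.11 in progression, at 6.30, 4.88 and 5.66 at the terminal stage, and at 10.21, 10.18, 9.87, 10.05 and 10.21 in wild type. The progression arrays overlapped both other stages, the terminal arrays lay below the early ones, and wild type stood apart. Its log2 differences were -2.29 ± 0.52, -3.52 ± 0.52 and -4.49 ± 0.52 in stage order (adjusted p = 0.008, 0.00036 and 1.7e-05), and the one in progression was the lowest of all genes. Ms4a1 encodes CD20, a membrane protein found on B cells from the late precursor stage until plasma cells form. It was at 11.39, 11.68 and 10.48 early, at 9.56, 10.64 and 11.57 in progression, at 10.07, 7.58 and 9.22 at the terminal stage, and at 12.79, 12.86, 12.80, 12.86 and 13.03 in wild type. Ms4a1 was lower in terminal spleens than in wild type (log2 difference -3.91 ± 0.49, adjusted p = 3.4e-05), and the early and progression differences were -1.68 ± 0.49 and -2.28 ± 0.49 (adjusted p = 0.031 and 0.005).

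Cd22, the inhibitory receptor, was at 10.53, 10.72 and 9.19 early, at 8.38, 9.70 and 10.89 in progression, at 9.59, 6.87 and 9.15 at the terminal stage, and at 12.06, 11.95, 11.67, 11.92 and 11.82 in wild type. It was the gene that missed the threshold at the early stage, at -1.74 ± 0.59 (adjusted p = 0.063), although no early array reached the wild-type range. In progression it was 4.67-fold lower (adjusted p = 0.018) and at the terminal stage 10.2-fold lower (adjusted p = 0.00057). Cd79b, the signalling partner of membrane antibody, had the smallest differences of the 9 at the early, progression and terminal stages, at -1.57 ± 0.43, -2.22 ± 0.43 and -3.07 ± 0.43 (adjusted p = 0.022, 0.0024 and 8.3e-05). Its level was 10.74 ± 0.52 early, 10.09 ± 1.09 in progression and 9.24 ± 0.86 at the terminal stage (SD, n = 3 each), and 12.31 ± 0.20 in wild type (n = 5).

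Blnk, the adaptor, was at 10.09 ± 0.60 early, 9.25 ± 1.10 in progression, 8.60 ± 0.63 at the terminal stage and 11.87 ± 0.10 in wild type. That was 3.42-fold, 6.12-fold and 9.61-fold below wild type in stage order (adjusted p = 0.0079, 0.00049 and 2.8e-05). Spib was at 9.53, 10.01 and 8.19 early, at 7.90, 8.27 and 9.95 in progression, at 8.10, 5.20 and 7.78 at the terminal stage, and at 11.51, 11.27, 11.13, 11.34 and 11.65 in wild type. Terminal array 2 stood apart from the other 2 terminal arrays in Spib, and the terminal mean was 20.5-fold below wild type (log2 difference -4.35 ± 0.61, adjusted p = 8.7e-05). Fcrla, an Fc receptor-like protein that B cells keep inside the cell, was at 7.55 ± 0.24 early, 7.04 ± 0.74 in progression, 6.19 ± 0.90 at the terminal stage and 9.77 ± 0.33 in wild type. Its log2 differences were -2.22 ± 0.36, -2.73 ± 0.36 and -3.58 ± 0.36 (adjusted p = 0.00098, 0.00021 and 6.1e-06).

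The arrays of 1 stage differed in the same way for nearly all genes. Among early spleens, array 2 was the highest and array 3 the lowest for 9 of 9 genes, with means of the 9 genes at -1.35 and -2.80 against the wild-type mean. Among progression spleens, array 3 was the highest and array 1 the lowest for 9 of 9, at -1.63 and -3.65. Progression array 3 was from 9 months of tamoxifen and the other 2 from 10. At the terminal stage array 2, from 23 months, had the lowest value of 7 genes and a mean of -5.04. Terminal array 1, from 21 months, had the highest value of 8 genes and a mean of -3.26. Terminal array 3, from 19 months, had a mean between these, at -3.88. The 5 wild-type spleens lay between -0.13 and 0.20, and the one of 24 months was at -0.10. The Gapdh signal at its 3′ end less that at its 5′ end, which grows as RNA breaks down, was 0.60, 1.07 and 0.03 on early arrays 1 to 3, 0.06, 0.01 and 0.68 on progression arrays 1 to 3 and 0.00, 0.12 and 0.44 on terminal arrays 1 to 3. This end difference was a covariate in 1 of the alternative fits given below, and its part in the spread within a stage was not tested.

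Between stages of the spleen, no gene of the 9 passed the threshold in progression against early, and 0 of all 12393 genes did (0%), with 911 at an unadjusted p under 0.05, none of the 9 among them. The differences of the 9 ran from -0.49 for Cd22 (95% interval -1.91 to 0.93) to -1.23 for Cxcr5 (-2.47 to 0.01), with Cr2 next at -1.23 (-2.48 to 0.03). In terminal against progression 2 of 9 were lower, against 3.29% of all genes: Cr2 by -2.97 ± 0.58 (adjusted p = 0.01) and Fcer2a by -1.52 ± 0.42 (adjusted p = 0.048). These were also the 2 genes whose terminal arrays all lay below all progression arrays, as 11.6% of all genes did. In terminal against early 4 of 9 were lower, against 3.88% of all genes: Cr2 by -4.20 ± 0.58, Fcer2a by -2.02 ± 0.42, Cxcr5 by -2.21 ± 0.58 and Ms4a1 by -2.23 ± 0.55 (adjusted p = 0.00044, 0.011, 0.037 and 0.028). Every terminal array lay below every early array for 8 of 9, all but Cd22, as for 11% of all genes. The count in terminal against progression was 1 without any 1 of progression arrays 1, 2 and 3 and terminal arrays 2 and 3, and 4 without terminal array 1. The count in terminal against early was 1 without early array 2, 2 without early array 1, terminal array 2 or terminal array 3, and 8 without early array 3. The count in progression against early was 1 without progression array 3. Xist was high on all terminal and on no progression arrays, and with its level as a covariate 0 of 9 were called in terminal against progression. Time on tamoxifen rose with stage, from 7 months early to 9 or 10 in progression and 19 to 23 at the terminal stage. Stage and time therefore cannot be told apart in comparisons between stages.

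**Figure D2:**
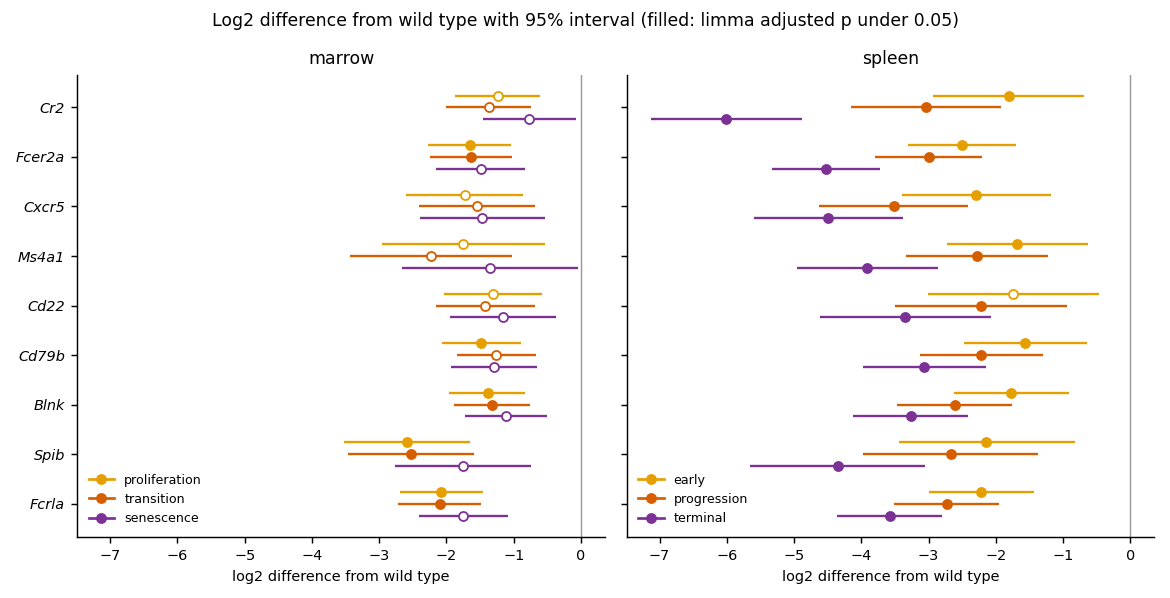
Log2 difference from wild type (x axis) of each gene (rows) at each stage in marrow (left) and spleen (right), with the 95% interval as a line and filled points for limma adjusted p under 0.05. Spleen points move left with stage for every gene, to -6.01 for Cr2, while marrow points run from -2.59 for Spib to -0.77 for Cr2.

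The measured levels of the 9 genes did not keep their proportions in the spleen. Cr2 minus the mean of the other 8 genes on the same array was 0.05 ± 0.48 early, -0.51 ± 0.25 in progression, -2.32 ± 0.21 at the terminal stage and -0.13 ± 0.11 in wild type (SD, n = 3, 3, 3 and 5). The 3 terminal arrays ran from -2.47 to -2.08, below every other spleen array. Cd79b minus the other 8 was 1.62 ± 0.26, 1.72 ± 0.17 and 2.29 ± 0.20 in stage order and 1.17 ± 0.09 in wild type, and all 9 fusion arrays were above the wild-type arrays. Blnk was at 0.90 ± 0.16, 0.77 ± 0.14 and 1.57 ± 0.58 in stage order and at 0.68 ± 0.17 in wild type, and each stage overlapped wild type. Cxcr5 was at -1.66 ± 0.28, -2.22 ± 0.45 and -1.79 ± 0.24 in stage order and at -1.30 ± 0.15 in wild type. These relative levels are a description, with no test. Terminal means were 5.14 for Cr2, 5.52 for Fcer2a and 5.61 for Cxcr5, near the lower quartile of the arrays. Ms4a1, Cd22, Cd79b, Blnk and Spib, with terminal means of 7.03 to 9.24, were lower than wild type by -4.35 to -3.07. Cr2 was lower by -6.01. A limit on how low the signal could go would make a measured fall smaller. The part of such a limit in these relative levels was not tested.

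**Figure D3:**
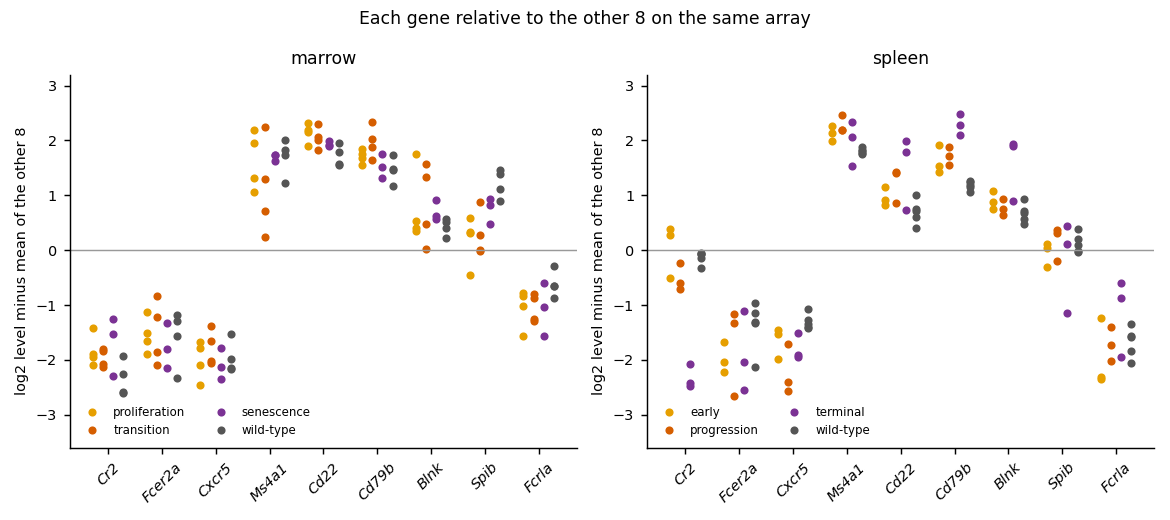
Log2 level of each gene minus the mean of the other 8 on the same array (y axis), by gene (x axis) and group (colour), in marrow (left) and spleen (right); each point is 1 array. Terminal Cr2 lies between -2.47 and -2.08 in spleen, and Spib in proliferation and transition marrow lies below the wild-type marrow arrays.

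In the marrow all 9 genes were lower on average in each of the 3 fusion states than in wild type, by a median of -1.65 in proliferation, -1.55 in transition and -1.35 in senescence, beside 0.01, 0.04 and 0 over all genes. The 3 states again share their wild-type arrays. By limma 5 of 9 were lower in proliferation (Fcer2a, Cd79b, Blnk, Spib and Fcrla), against 0.169% of all genes, and 4 of 9 in transition (Fcer2a, Blnk, Spib and Fcrla), against 0.234%. In senescence 0 of 9 passed, against 0.0161% of all genes, while all 9 had an unadjusted p under 0.05. Pooled over the states 6 of 9 were lower, against 0.387% of all genes, Cxcr5 in addition to the 5 of proliferation. Every fusion array was below every wild-type array for 7 of 9 genes in proliferation, 5 in transition and 8 in senescence, beside 2.29%, 1.9% and 2.07% of all genes. The proliferation count was 1 without proliferation array 2 or 3 or wild-type array 1 or 3, 2 without proliferation array 1 or wild-type array 4, 3 without proliferation array 4, and 7 at most. The transition count was 1 without transition array 2 or 3 or wild-type array 1 or 3, 2 without transition array 4 or wild-type array 4, and 9 without transition array 1. The senescence count was 2 without wild-type array 2. The pooled count was 2 without wild-type array 1 or 3 and 3 without wild-type array 4. Because Xist was high on all proliferation and transition arrays, its level was also used as a covariate, and 1 of 9 was then called in each of these states.

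Spib had the largest marrow difference in proliferation, transition and senescence. It was at 7.46, 8.49, 8.29 and 9.20 in proliferation, at 9.76, 7.81, 8.05 and 8.06 in transition, at 8.67, 9.34 and 9.57 in senescence, and at 11.47, 10.11, 11.22 and 11.01 in wild type. No fusion array reached the wild-type range, although transition array 1 stood well above the other transition arrays. Spib was 6.04-fold lower in proliferation (log2 difference -2.59 ± 0.44, adjusted p = 0.023) and 5.79-fold lower in transition (-2.53 ± 0.44, adjusted p = 0.017), and its difference in senescence was -1.76 ± 0.48 (adjusted p = 0.45). Relative to the other 8 genes on the same array Spib was at 0.19 ± 0.45, 0.29 ± 0.42 and 0.75 ± 0.23 in the 3 states and at 1.21 ± 0.26 in wild type. Of those 8, Cr2, Fcer2a and Cxcr5 lay near the lower quartile of the arrays in fusion marrow.

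Fcrla was at 7.11, 7.32, 7.30 and 7.29 in proliferation, at 7.86, 7.11, 7.03 and 6.91 in transition, at 6.85, 8.08 and 7.82 in senescence, and at 9.59, 8.54, 9.66 and 9.53 in wild type. It had the smallest adjusted p of the 9 in all 3 states. Its log2 differences were -2.08 ± 0.29 (adjusted p = 0.0047), -2.10 ± 0.29 (adjusted p = 0.003) and -1.75 ± 0.31 (adjusted p = 0.066) in that order. The Fcrla means of 7.25 in proliferation and 7.23 in transition lay only about 1 unit above the arrays' lower quartile of 6.13 to 6.32. Fcer2a was at 6.85, 6.88, 6.52 and 7.00 in proliferation, at 7.12, 6.17, 6.72 and 7.31 in transition, at 7.06, 7.02 and 6.83 in senescence, and at 9.02, 8.08, 9.04 and 7.72 in wild type. All 3 fusion groups of Fcer2a lay less than 1 unit above the arrays' lower quartile. Its differences were -1.65 ± 0.29, -1.63 ± 0.29 and -1.49 ± 0.31 (adjusted p = 0.026, 0.018 and 0.18).

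Blnk was at 9.42, 8.57, 8.47 and 8.99 in proliferation, at 9.00, 9.01, 9.20 and 8.49 in transition, at 8.74, 9.17 and 9.54 in senescence, and at 10.37, 9.63, 10.78 and 10.24 in wild type. It was 2.62-fold lower in proliferation and 2.51-fold lower in transition (adjusted p = 0.042 and 0.043). Cd79b was 2.78-fold lower in proliferation (adjusted p = 0.038), and in transition its difference of -1.26 ± 0.27 missed the threshold (adjusted p = 0.066). Ms4a1 spread most between arrays. It was at 8.80, 9.96, 9.16 and 10.62 in proliferation, at 10.97, 8.45, 8.02 and 9.21 in transition, at 9.78, 10.05 and 10.28 in senescence, and at 11.71, 10.22, 12.05 and 11.57 in wild type. All 3 fusion states overlapped the wild-type range, and the differences of -1.75 ± 0.57, -2.23 ± 0.57 and -1.35 ± 0.61 did not pass (adjusted p = 0.27, 0.15 and 0.77).

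Cr2, Cxcr5 and Cd22 passed in none of the 3 states. Cr2 differed from wild type by -1.24 ± 0.30 in proliferation, -1.37 ± 0.30 in transition and -0.77 ± 0.32 in senescence (adjusted p = 0.11, 0.065 and 0.72), and its wild-type mean was 7.79 ± 0.41 (SD, n = 4). Cxcr5 differed by -1.73 ± 0.41, -1.55 ± 0.41 and -1.47 ± 0.44 (adjusted p = 0.11, 0.16 and 0.52). Cd22 differed by -1.31 ± 0.34, -1.42 ± 0.34 and -1.16 ± 0.37 (adjusted p = 0.16, 0.11 and 0.59).

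**Figure D4:**
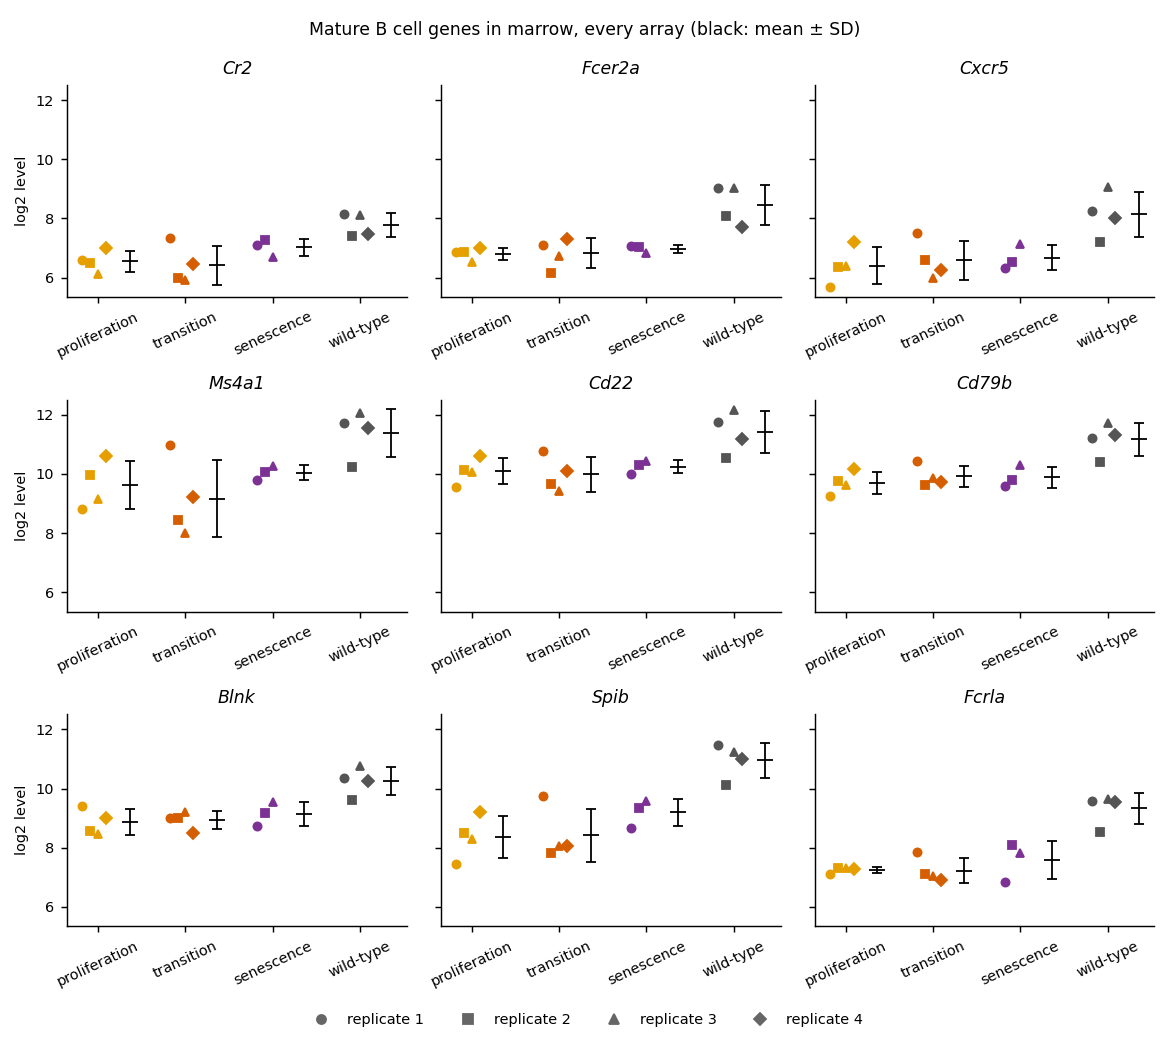
Log2 level of each gene (y axis) on every marrow array, by group (x axis: proliferation, transition, senescence, wild type), with the replicate number as marker shape and the mean ± SD in black (n = 4, 4, 3 and 4). Wild-type array 2 (square) is the lowest wild-type array for 8 of 9 genes, and transition array 1 (circle) the highest transition array for 7.

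Between the marrow states no gene of the 9 passed. In transition against proliferation, senescence against transition and senescence against proliferation 0 of all genes were called (0% each), with 266, 380 and 125 genes at an unadjusted p under 0.05 and none of the 9 among them. Differences of the 9 ran from -0.47 (Ms4a1, 95% interval -1.68 to 0.74) to 0.22 (Cd79b, -0.37 to 0.80) in transition against proliferation. In senescence against proliferation they ran from 0.16 (Fcer2a, -0.51 to 0.83) to 0.84 (Spib, -0.18 to 1.85), and in senescence against transition from -0.03 (Cd79b, -0.67 to 0.60) to 0.87 (Ms4a1, -0.43 to 2.18). A difference of 1 log2 unit lies inside the intervals of Cr2, Cxcr5, Ms4a1 and Spib in senescence against proliferation, and inside others of senescence against transition. Single arrays carried much of the spread. Transition array 1 was the highest transition array for 7 of 9 genes, with a mean of the 9 genes of -0.91 against the wild-type mean, while the other 3 lay between -2.08 and -1.82. Wild-type array 2 was the lowest wild-type array for 8 of 9, at -0.75, with the other 3 between -0.10 and 0.55.

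The fusion difference was set between tissues as the marrow difference minus the spleen difference, pooled over the 3 states or stages, in a fit of all 29 arrays. The sources used here do not say whether marrow and spleen came from the same mice, and the fit takes the arrays as independent. Pooled in this way, the marrow difference was smaller in size for all 9 genes, and for 4 of 9 this passed the threshold. Over all genes 13.9% differed between the tissues in either direction. Cr2 was lower by -1.13 ± 0.25 in marrow and by -3.62 ± 0.40 in spleen, and the tissues differed by 2.49 ± 0.50 (adjusted p = 0.001). Fcer2a was at -1.59 ± 0.24 in marrow and -3.34 ± 0.29 in spleen, a difference of 1.75 ± 0.39 (adjusted p = 0.0031). Cxcr5 was at -1.58 ± 0.34 in marrow and -3.43 ± 0.39 in spleen, a difference of 1.85 ± 0.55 (adjusted p = 0.023). Blnk was at -1.28 ± 0.22 in marrow and -2.55 ± 0.31 in spleen, a difference of 1.27 ± 0.40 (adjusted p = 0.031). Fcrla, at 1.38 ± 0.47 (adjusted p = 0.051), and the other 4 did not pass. The Fcrla value rests on 1 probe set in both tissues, at -1.97 ± 0.24 in marrow and -3.36 ± 0.38 in spleen, which is not the one behind the spleen levels given above. Among those 4 Spib was lowest, at 0.76 ± 0.63 (95% interval -0.53 to 2.05). Cr2, Fcer2a and Cxcr5 had fusion marrow levels less than 1 unit above the lower quartile of the arrays. Wild-type marrow Cr2, at 7.79, was closer to that quartile than the 3.62 by which Cr2 was lower in spleen, so the 3 gaps cannot be told apart from this limit. Among the genes above the median level, which leave these 3 out, 1 of 5 passed, Blnk. Without wild-type marrow array 2 the count was 2. The fusion marrows were from 7 to 8 months of tamoxifen and the fusion spleens from 7 to 23. Tissue and time on tamoxifen therefore cannot be told apart in the pooled contrast. At 7 months, proliferation marrow and early spleen differed from wild type by -2.59 and -2.14 for Spib. For Ms4a1 these values were -1.75 and -1.68, while for the rest of the 9 the spleen difference was the larger.

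Over the arrays of a tissue the 9 genes went up and down together. Pearson's r over the 36 pairs ran from 0.68 (Ms4a1 and Blnk) to 0.97 (Cxcr5 and Cd79b) in marrow, with a median of 0.88 over 15 arrays, and from 0.89 (Fcer2a and Cd22) to 0.99 (Cxcr5 and Blnk) in spleen, with a median of 0.96 over 14 arrays. The arrays share their groups, and deviations from the group means gave a median of 0.69 in marrow and 0.88 in spleen. In these deviations the weakest pair was Fcer2a and Blnk in both tissues, at 0.19 and 0.46. The genes outside the 9 most like their mean over the 14 spleen arrays were Ebf1 (r = 0.993), a transcription factor of B cell identity, Gimap1 (0.989), a GTPase of lymphocytes, Ly6d (0.989), Ablim1 (0.988), Bach2 (0.988) and Scd1 (0.987). Over the 15 marrow arrays they were Ccr6 (0.96), Blk (0.957), Scd1 (0.951), Cd79a (0.94), Ablim1 (0.935) and Ccr7 (0.935). Scd1, a fatty acid desaturase, and Ablim1, an actin-binding protein, were in both sets of 6. Ablim1 was lower by -1.88 ± 0.39, -2.47 ± 0.39 and -3.39 ± 0.39 in the 3 spleen stages. Ebf1 was lower by -4.51 ± 0.44 at the terminal stage. Both genes were picked for their likeness to the 9 over these same arrays. Their lower values follow from that choice and are no separate result.

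Other genes of the same cells were taken from lists, which were also written with earlier results of these data known. Over all 12393 genes, 8.55%, 9.96% and 16.3% were called lower in early, progression and terminal spleen. Called higher were 910, 1151 and 2246 genes. Of 9 further measured surface and survival genes of mature B cells, 9 were lower at the early stage of the spleen, 8 in progression and 9 at the terminal stage, with medians of -1.36, -1.37 and -1.96. Terminal values were -3.59 ± 0.25 for Fcrl1, -4.09 ± 0.36 for Ccr6, -1.96 ± 0.18 for Cd40 and -3.59 ± 0.33 for Tnfrsf13c, the receptor of the survival factor BAFF. Of 17 signalling genes of the B cell receptor 4, 8 and 5 were lower in stage order and 0, 0 and 3 were higher, with terminal values of -3.66 ± 0.53 for the kinase Blk, -2.65 ± 0.44 for Cd79a and 0.89 ± 0.17 for Dok3. The list holds kinases and adaptors that myeloid cells also use. Of 13 transcription factors 7, 9 and 9 were lower and 1 was higher at every stage. That one was Spi1, which encodes PU.1, a factor of myeloid as well as B cells, at 2.00 ± 0.18 at the terminal stage, where Bach2 was at -4.06 ± 0.47 and Foxo1 at -2.52 ± 0.30.

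In marrow fewer genes of these lists passed. Over all genes, 0.169%, 0.234% and 0.0161% were called lower in proliferation, transition and senescence, and 0.387% pooled. None of the 17 signalling genes and none of the 9 surface and survival genes passed in any single state; pooled over states, Cd72 at -1.43 ± 0.27 and Ccr7, Tnfrsf13c and Ccr6 at -1.28 ± 0.24, -1.68 ± 0.35 and -1.44 ± 0.30 did. Of the 13 transcription factors 1, 3 and 1 were lower in proliferation, transition and senescence. Bach2 was lower in all 3, at -1.98 ± 0.27, -2.07 ± 0.27 and -1.79 ± 0.29, and Ebf1 was lower in transition at -2.37 ± 0.39. Of 10 genes of early B precursors 3, 3 and 0 were lower, among them Vpreb1, part of the surrogate light chain, at -3.32 ± 0.43 in proliferation and -3.45 ± 0.43 in transition. Igll1, its partner, was at -1.77 ± 0.28 and -1.60 ± 0.28.

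Markers of other cells also differed from wild type in spleen, some lists higher and others lower. All 10 neutrophil genes were higher at every stage, against 910, 1151 and 2246 of all 12393 genes in stage order. Their mean lay 1.82 to 2.46 above wild type on early, 1.80 to 2.41 on progression and 2.28 to 2.48 on terminal arrays. Wild type lay between -0.48 and 0.51. Called lower were 8.55%, 9.96% and 16.3% of all genes in stage order. Of 8 measured T cell genes 7 were lower at each stage, and their mean lay between -1.67 and -1.06, -1.79 and -1.02, and -1.81 and -1.34 in stage order, with wild type between -0.23 and 0.23. Of 5 follicular dendritic and stromal cell genes 2, 2 and 4 were lower, with terminal values of -2.00 ± 0.41 for Cxcl13, the ligand of CXCR5, -1.44 ± 0.32 for Mfge8 and -2.49 ± 0.46 for Clu. Their mean lay between -1.64 and -0.59, -1.03 and -0.53, and -1.83 and -1.11 in stage order, with wild type between -0.26 and 0.27. Of 5 plasmacytoid dendritic cell genes, a cell type that also uses Spib, 2, 1 and 3 were lower. The lowest terminal value was -3.85 ± 0.33 for Ly6d, with a list median of -0.77. Ly6d was also among the 6 genes most like the 9 in spleen (r = 0.989), so its value cannot be assigned to 1 cell type. Of 6 erythroid genes 0, 0 and 5 were lower, and their mean lay between -0.07 and 0.39 early, -0.29 and 0.06 in progression and -1.68 and -1.27 at the terminal stage, with wild type between -0.21 and 0.07. Array levels give no true 0, so no marker can be called absent, and the part of these cells in the 9 genes was not tested.

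In marrow the neutrophil mean stayed between -0.06 and 0.06 in proliferation, -0.15 and 0.33 in transition and -0.10 and 0.18 in senescence, with wild type between -0.05 and 0.09, and none of its 10 genes passed. These genes averaged 14.44 to 14.92 on the marrow arrays, whose highest probe sets were at 15.11 to 15.38, so little of the measured range lies above them. None of the 8 T cell, 5 follicular dendritic and stromal or 6 erythroid genes passed in any state. Of the 5 plasmacytoid dendritic cell genes 2, 0 and 0 were lower, Bst2 at -0.93 ± 0.17 and Ly6d at -1.48 ± 0.29 in proliferation. Their mean, which includes Ly6d, lay between -1.07 and -0.49 in proliferation, -1.05 and -0.56 in transition and -0.95 and -0.41 in senescence. Wild type lay between -0.13 and 0.10. The lower list mean stood beside the lower Spib of these states, and its part was not tested.

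**Figure D5:**
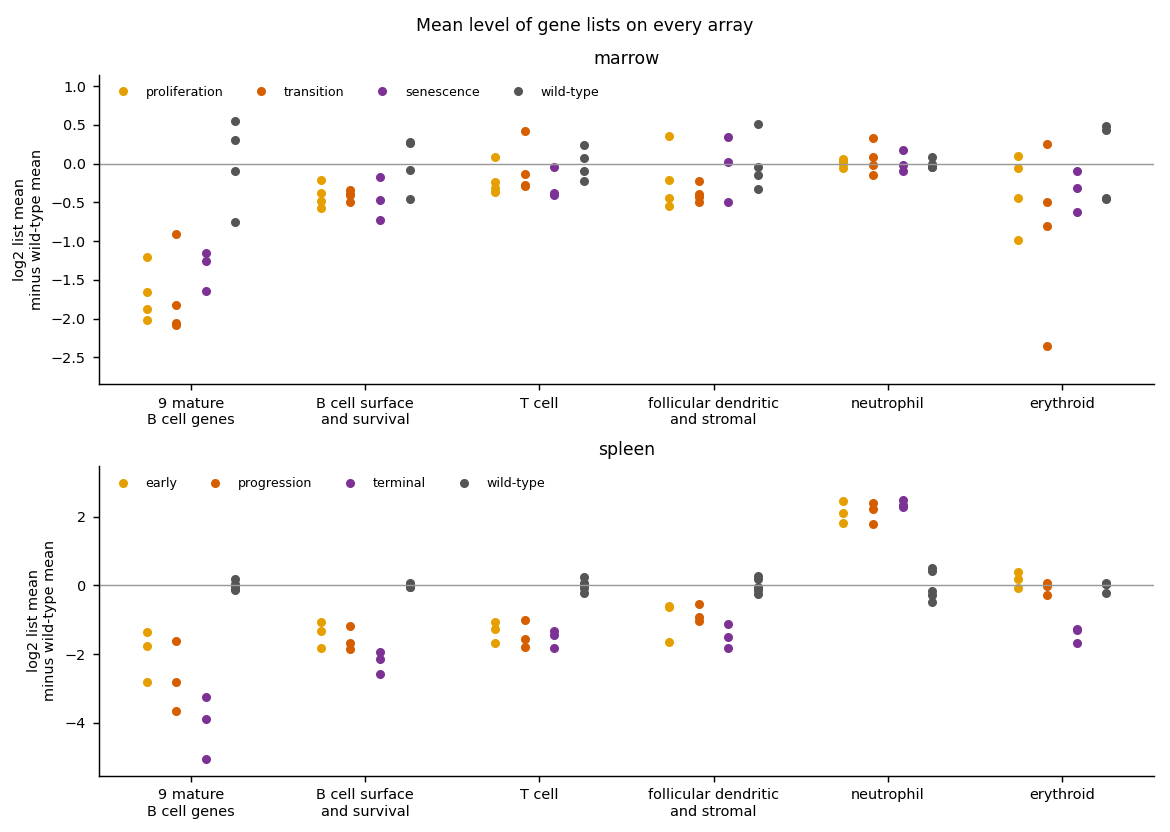
Mean log2 level of gene lists on each array minus the wild-type mean (y axis) in marrow (top) and spleen (bottom), by list (x axis) and group (colour); each point is 1 array. The 9 genes lie at -5.04 to -3.26 in terminal spleen, where the T cell genes lie at -1.81 to -1.34 and the neutrophil genes at 2.28 to 2.48.

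Fcer2a, Ms4a1 and Cd22 had a second probe set and Fcrla had 3 in all. In spleen all of these were lower than wild type in every stage, and at the terminal stage the dimmer ones gave -3.33 ± 0.28 for Fcer2a, -4.81 ± 0.63 for Ms4a1, -3.03 ± 0.61 for Cd22, and -4.34 ± 0.49 and -1.79 ± 0.22 for Fcrla. The Fcrla set at -1.79 also gave -1.79 in progression. Its mean level over the spleen arrays, 5.25, lay less than 1 unit above their lower quartile. In marrow the dimmer Fcer2a probe set, at a mean level of 5.26 below the lower quartile, gave only -0.25 ± 0.12, -0.18 ± 0.12 and -0.33 ± 0.13 in state order (adjusted p = 0.56, 0.68 and 0.82 over all probe sets). The dimmer Ms4a1 probe set gave -1.75 ± 0.61, -2.14 ± 0.61 and -1.42 ± 0.66, within 0.1 of the brighter one. The dimmer Cd22 probe set gave smaller differences than the brighter one, at -0.87 ± 0.31, -0.84 ± 0.31 and -0.85 ± 0.34. The dimmest Fcrla probe set did so too, at -0.74 ± 0.20, -0.70 ± 0.20 and -0.72 ± 0.21, and the Fcrla set of middle level gave -1.75 ± 0.26, -1.61 ± 0.26 and -1.19 ± 0.28. The brightest Fcrla probe set was not the same in marrow and spleen.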

How the data were processed

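RNA of bone marrow and spleen cells was measured on 29 Affymetrix arrays. The authors deposited log2 probe set values; the submitters' processing notes name RMA, affy and limma, with versions and settings not given in the sources used here. Medians differ between marrow and spleen arrays, which points to a separate normalization of each tissue.

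Of 22690 probe sets, 20393 had 1 symbol, 691 several and 1606 none in the platform annotation used here. The brightest probe set in a tissue stood for its gene, 12393 genes in all without control probe sets, and no filter on dim genes was applied. For each tissue 1 limma model with 4 groups was fitted (limma 3.58.1, R 4.3.3), with Benjamini-Hochberg adjustment over all genes and a threshold of 0.05; the contrast between tissues used all 29 arrays. Every adjusted p is limma's. Errors are standard errors of the fit unless given as SD, and intervals are 95%. Arrays have no read depth, and their number limits the precision. No 2 arrays held identical values. The replicates are biological per the labels. The fits were tested on simulated data.

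The named genes are the 9 genes in every comparison, up to 4 called genes of a list with the smallest p, markers of other cells, and the 6 genes per tissue most correlated with the mean of the 9, without placeholder symbols or antigen receptor segments. The 9 genes and the lists were chosen with earlier results of these data known. The alternatives changed the normalization (a second quantile step, or median centring), the genes (those over the median level, or all probe sets averaged) or the fit (the compared groups alone, trend with robust eBayes, array weights, a replicate block, and Xist or the Gapdh end difference as a covariate). Others left out arrays: those with signal of another tissue, or each in turn. Promoters were searched with Python 3.11.15 and figures drawn with matplotlib 3.10.9.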

Additional observations from a re-analysis of the deposited data

Results flagged for a closer look

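In groups of 4 or 5 arrays, 3 values stood apart from the rest of their group among 40 sets of values looked at, and chance alone marks about 1 in 20 such sets. Fcrla was at 7.11 on proliferation marrow array 1, the array with adipocyte and muscle signal, with the nearest of the other 3 at 7.29, in a group that spanned 7.11 to 7.32. Spib was at 9.76 on transition marrow array 1, with the nearest of the other 3 at 8.06. Fcrla was at 8.54 on wild-type marrow array 2, with the nearest of the other 3 at 9.53.

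The difference between the fusion effects in marrow and spleen passed the threshold for 4 genes in the test of that difference. Marrow minus spleen was 2.49 for Cr2, 1.75 for Fcer2a, 1.85 for Cxcr5 and 1.27 for Blnk on the log2 scale. For Cr2, Fcer2a and Cxcr5 the fusion marrow levels lay less than 1 unit above the arrays' lower quartile, so a smaller marrow effect and a limit on how low the signal could go cannot be told apart. With the genes above the median level, which leave out these 3, 1 gene passed. For all 4 genes the fusion marrows were from 7 to 8 months of tamoxifen and the fusion spleens from 7 to 23. Tissue and time therefore cannot be told apart.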

How the results depend on the processing

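No difference of the 9 genes that passed the threshold turned its direction in the 11 settings or with any array left out. Quantile normalization and median centring left every count of the 9 genes within 1.5 times its value. In proliferation against wild type 5 genes passed, but 2 with the genes above the median level (5 of the 9 are among them), 3 with only the groups compared, 9 with array weights, 1 with the Xist level as covariate and 2 without the array with signal of another tissue. In transition the 4 became 1 with the genes above the median level, 1 with only the groups compared, 9 with array weights, 1 with the Xist level and 1 with the Gapdh difference as covariate. In senescence the 0 became 1 with trend and robust options, 5 with array weights and 1 with the Gapdh difference. In early spleen the 8 became 4 without the arrays with signal of another tissue. In progression against early the 0 became 3 with array weights. In terminal against progression the 2 became 1 with the mean of all probe sets, 0 with only the groups compared, 1 with trend and robust options, 1 with array weights, 0 with the Xist level and 1 without the arrays with signal of another tissue. In terminal against early the 4 became 8 with the genes above the median level, 1 with only the groups compared, 9 with array weights, 2 with the Xist level, 2 with the Gapdh difference and 1 without the arrays with signal of another tissue. In marrow minus spleen the 4 became 1 with the genes above the median level. Dropping dim genes or groups changes the number of genes or arrays in the fit; otherwise the cause was not tested.

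Deviations from group means of same-numbered arrays of different groups correlated at -0.431 to 0.551 in marrow (median 0.093, 21 pairs). In spleen they did so at -0.321 to 0.23 (median 0.007, 18 pairs). Arrays of different numbers gave -0.602 to 0.697 in marrow (median -0.024, 63 pairs) and -0.347 to 0.357 in spleen (median -0.012, 54 pairs). No pairing by number was seen, while a shared batch and pairs across the tissues were not tested. With the replicate number as a block, 1 gene passed in proliferation, 1 in transition, 2 in early spleen, 0 in terminal against progression, 2 in terminal against early and 2 in marrow minus spleen.

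With each array left out in turn the counts ran from 1 to 7 in proliferation, 1 to 9 in transition, 0 to 2 in senescence, 2 to 9 pooled over marrow, 4 to 8 in early spleen, 8 to 9 in progression, 0 to 1 in progression against early, 1 to 4 in terminal against progression, 1 to 8 in terminal against early and 2 to 6 in marrow minus spleen. They stayed at 9 in terminal spleen and pooled spleen and at 0 between marrow states. Signal close to the arrays' lower quartile limits Cr2, Fcer2a and Cxcr5 in fusion marrow and terminal spleen.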

Other observations

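Early B precursor genes moved both ways in the spleen. Of 10, 3 were lower and 1 higher than in wild type at the early stage and 3 lower and 4 higher in progression. At the terminal stage 4 were lower and 2 higher. Over all 12393 genes, 1060, 1234 and 2023 were lower and 910, 1151 and 2246 higher in stage order. Those called in progression were Il7r, Vpreb3 and Lef1, of which Il7r and Lef1 are also T cell genes, at -2.94 ± 0.22, -1.77 ± 0.18 and -1.91 ± 0.34, and Rag2, Igll1, Vpreb1 and Rag1 at 0.55 ± 0.12, 0.74 ± 0.16, 1.70 ± 0.40 and 1.69 ± 0.45 (limma adjusted p = 0.0063, 0.0064, 0.0084 and 0.019 for these 4). Igll1, Vpreb1 and Rag1 were named after their values were seen. Of 6 measured plasma cell genes 1, 3 and 3 were lower at the early, progression and terminal stages, with Jchain, which links antibody polymers, at -1.43 ± 0.23 in progression and -1.72 ± 0.23 at the terminal stage. In marrow 0 of the 6 plasma cell genes passed in any state by limma.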
